A study of Mus musculus with 9 samples.

Results

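The enzymes that oxidise, hydrolyse and conjugate drugs and lipids were compared across ribosome-bound and total RNA of the mouse cerebral cortex. Members were chosen by gene symbol alone: cytochromes P450 (Cyp and a number), glutathione transferases (Gsta, Gstk, Gstm, Gsto, Gstp, Gstt, Gstz and the microsomal Mgst), UDP-glucuronosyltransferases (Ugt1 and Ugt2), sulfotransferases (Sult1 to Sult6), flavin monooxygenases (Fmo), epoxide hydrolases (Ephx) and aldehyde dehydrogenases (Aldh and a number, Aldh1l1 excepted). This gave 190 of the 32531 genes listed, made up of 103 Cyp, 24 Gst and Mgst, 19 Aldh, 18 Sult, 17 Ugt, 5 Fmo and 4 Ephx genes. Of the 190, 185 were annotated as protein coding.

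Most foreign compounds are handled in stages. Oxidising enzymes such as P450s and flavin monooxygenases add or expose a reactive group, epoxide hydrolases and aldehyde dehydrogenases remove reactive products, and transferases then couple glutathione, glucuronic acid or sulfate to the product, which efflux pumps can carry out of the cell. In brain capillaries this chemistry is regarded as a metabolic layer of the blood-brain barrier, beside tight junctions and pumps such as the Abcb1a product. Other members of the same families work on the body's own lipids, among them cholesterol and its oxysterols, arachidonic acid and retinoic acid, and several of those are known from neurons and glia.

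All 9 libraries came from untreated adult control mice of the line Abcb1a-EGFP/Rpl10a (ES3026; genotype Abcb1a-TRAP ES3026), so every group carried the transgene. The transgene puts an EGFP-tagged ribosomal protein, Rpl10a, under control of Abcb1a, whose pump marks capillaries of the brain, so that tagged ribosomes and the mRNA on them can be immunopurified. The groups were 3 immunopurified libraries whose RNA was extracted by investigator ES (ES IP), 3 extracted by investigator JL (JL IP) and 3 of total input RNA extracted by JL (JL input); no input of ES was analysed here. The submitters name no other difference between ES and JL, and nothing states that replicates came from separate mice, so p-values measure only the spread between these samples.

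The libraries held 31987470 to 46598478 gene counts. The label endothelial cells fitted the JL IPs best. The summed level of 12 endothelial markers was 1087 to 1977 CPM (counts scaled to a common library size) in ES IP, 9887 to 10590 CPM in JL IP and 57.5 to 64.2 CPM in JL input, although the labels give the inputs the same cell type. The summed level of 8 neuron markers was 15090 to 16530 CPM in ES IP, 1839 to 2397 CPM in JL IP and 14830 to 15560 CPM in JL input, so by both lists the ES IPs stood apart from the JL IPs. Abcb1a itself had 55.2, 42.1 and 37.5 CPM in ES IP, 451, 490.5 and 456 CPM in JL IP and 1.90, 2.71 and 1.85 CPM in JL input. The Y-linked Ddx3y had 660, 1037 and 855 counts in ES IP, 2298, 1 and 0 in JL IP, and 3249, 1 and 0 in JL input. Xist, an X-linked RNA of female cells, had 35, 181 and 68, then 51, 196 and 177, then 1, 986 and 1156 counts in these groups. By these counts JL input 1 came from mice of another sex than JL input 2 and JL input 3. Every ES IP held counts of both genes, while only 1 JL IP had more than 1 count of Ddx3y. Sex thus differed between libraries and between the 2 sets of IPs, and its part in the results was not tested.

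Start regions of 3 members are shown first, because drug-metabolising genes are textbook targets of the dioxin receptor Ahr, which binds DNA with the core GCGTG, and of the stress sensor Nfe2l2 (NRF2), which binds antioxidant elements with the core TGACNNNGC. Cyp1b1 (chr17:79715062-79715311, minus strand) is a classical Ahr target and was higher in JL IP than in JL input, Mgst1 (chr6:138140277-138140526, plus strand) was higher and has an antioxidant core, and Cyp46a1 (chr12:108334066-108334315, plus strand) was lower and has the largest number of GCGTG cores of these 3. Each line gives the 250 bases before the RefSeq start (GRCm38.p6), 5′ to 3′ on the gene's strand, with core matches of either strand in capitals.
Cyp1b1: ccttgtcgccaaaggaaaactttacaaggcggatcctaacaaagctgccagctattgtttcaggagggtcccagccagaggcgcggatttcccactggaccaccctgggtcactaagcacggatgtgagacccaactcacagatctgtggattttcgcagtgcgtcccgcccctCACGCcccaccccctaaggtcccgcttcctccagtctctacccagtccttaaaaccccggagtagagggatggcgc
Mgst1: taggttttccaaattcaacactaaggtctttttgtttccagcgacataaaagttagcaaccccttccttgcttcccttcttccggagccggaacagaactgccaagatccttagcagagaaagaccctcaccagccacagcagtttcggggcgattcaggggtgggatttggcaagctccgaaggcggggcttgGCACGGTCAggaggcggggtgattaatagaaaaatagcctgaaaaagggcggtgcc
Cyp46a1: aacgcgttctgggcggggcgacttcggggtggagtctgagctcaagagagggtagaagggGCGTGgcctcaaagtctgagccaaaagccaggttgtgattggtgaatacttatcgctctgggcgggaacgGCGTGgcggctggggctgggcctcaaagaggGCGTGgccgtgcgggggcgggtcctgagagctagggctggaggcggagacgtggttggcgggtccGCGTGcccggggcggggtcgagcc

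The Cyp1b1 core lies 76 bases before the start and the Mgst1 antioxidant core 56 bases before it, both on the opposite strand, and the Cyp46a1 cores lie 190, 120, 89 and 24 bases before it. Of 27025 genes with a start region in the RefSeq table (250 bases before to 50 after any listed start of the gene, both strands), 35.2% held GCGTG and 14% held TGACNNNGC. Of the 148 members in the table, 23.0% held GCGTG and 8.8% held TGACNNNGC. GCGTG was found in 34.6% of the 26 members in the table that were higher in JL IP than in JL input and in 53.8% of the 13 that were lower, and TGACNNNGC in 11.5% and 15.4% of these members. The letters therefore occurred on both sides of the comparison. These shares describe letters in a window and were not tested.

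Summed over the 190 members, the level was 2051 ± 273 CPM in ES IP, 2523 ± 170.5 CPM in JL IP and 1477 ± 15.2 CPM in JL input (mean ± SD, n = 3 each here and below). Glutathione transferases summed to 713 ± 190.5 CPM in ES IP, 1413 ± 160.3 CPM in JL IP and 500.2 ± 11.2 CPM in JL input. Flavin monooxygenases summed to 81.5 ± 20.7 CPM in ES IP, 268 ± 15.8 CPM in JL IP and 11.2 ± 1.15 CPM in JL input. P450s summed to 175 ± 7.95 CPM in ES IP, 184 ± 5.45 CPM in JL IP and 233 ± 9.75 CPM in JL input. Sulfotransferases summed to 612 ± 76.4 CPM in ES IP, 131 ± 20.7 CPM in JL IP and 272 ± 9.55 CPM in JL input, nearly all of it from Sult4a1 in ES IP and JL input. In bulk RNA fewer cells of a type and less RNA per cell cannot be told apart.

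Levels of different genes can be compared only per length, as CPM per kilobase of exon. On that scale Gstm1 was the highest member in JL IP, at 321 ± 22.9, followed by Gsta4 at 314 ± 87.5 and Gstm7 at 73.0 ± 3.69. In ES IP the order began with Sult4a1 at 229 ± 26.8, Gstm1 at 116 ± 14.3 and Gsta4 at 109.5 ± 43.1. In JL input it began with Gstm1 at 116 ± 4.01, Sult4a1 at 104 ± 3.32 and Gstm5 at 70.9 ± 3.66. The means of the highest pair in JL IP lay within the SD of Gsta4, as did those of Gstm1 and Gsta4 in ES IP. The highest P450 was Cyp2d22 in JL IP, at 10.1 ± 1.25, and Cyp46a1 in JL input, at 24.6 ± 3.36 CPM per kilobase.

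Of the 190 members, 60 had no count in any library (41 Cyp, 10 Ugt and 9 Sult), 52 had 1 to 100 counts over the 9 libraries and 78 had more. In the comparison of JL IP with JL input, 79 members passed the filter on low counts; a member that passes only through the group in which it is high has to differ, so counts among the 79 do not describe all 190. Of the 79, 34 were higher in JL IP, 43.0% of those tested against 36.7% of all 17357 genes tested, and 20 were lower, 25.3% against 37.4% (edgeR's quasi-likelihood test, adjusted p under 0.05). The other 25 did not pass. The median log2 fold change was 0.46 over the tested members and -0.09 over all genes. The share of higher calls in the whole set is thus close to the background, and the families differed from one another in it.

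**Figure D1:**
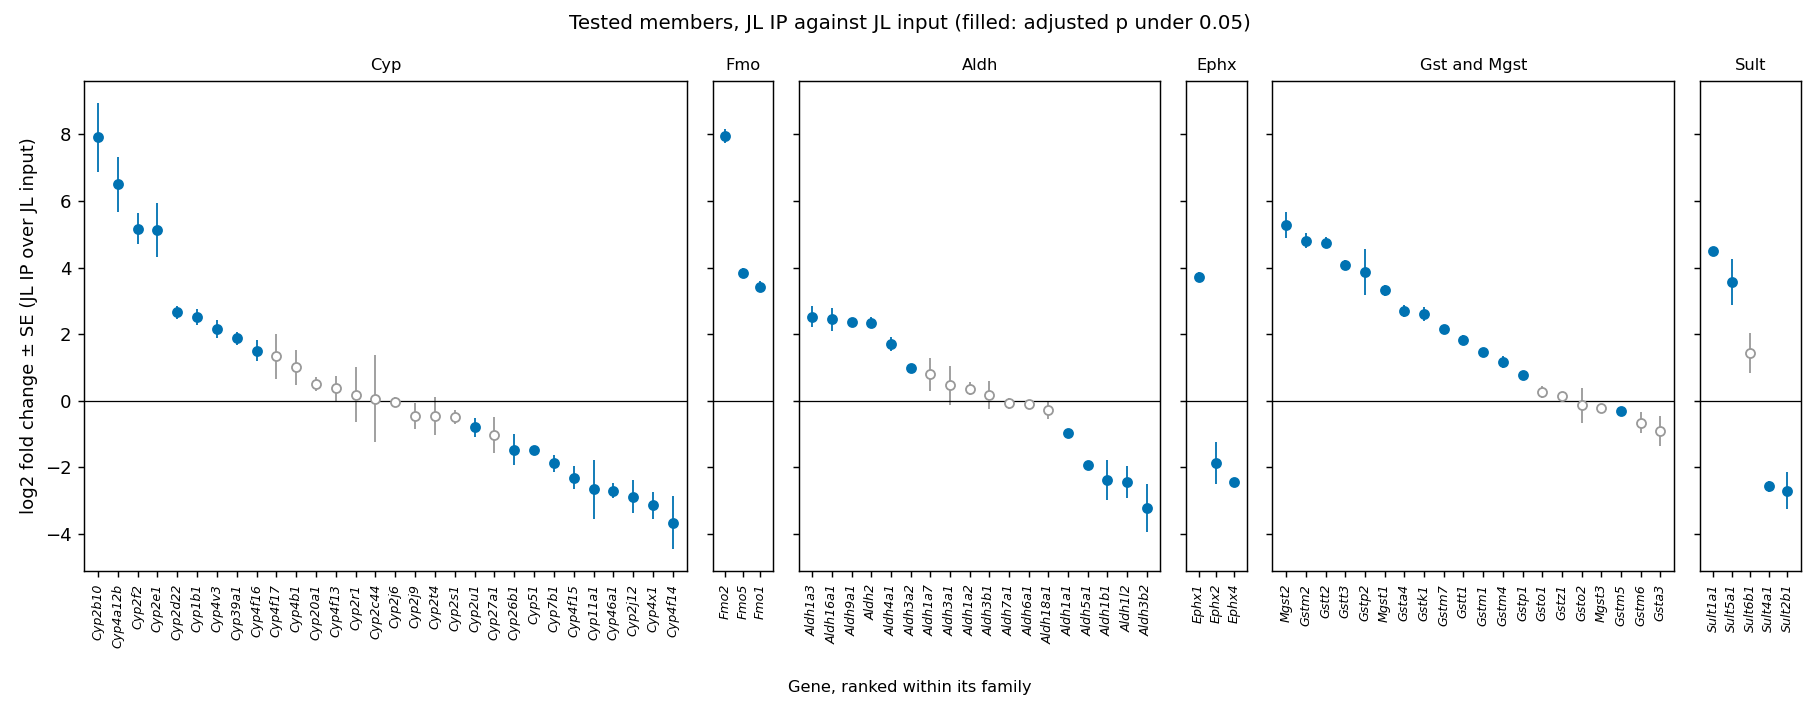
Log2 fold change of JL IP over JL input (vertical axis) for the 79 tested members, ranked within each family, with its standard error as a bar; filled points passed an adjusted p of 0.05 in edgeR's quasi-likelihood test and open points did not. All 3 flavin monooxygenases and 13 of 20 glutathione transferases lie above 0 as filled points, while P450s, epoxide hydrolases and sulfotransferases have filled points on both sides. Of all genes tested, 36.7% were higher and 37.4% lower.

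All 3 tested flavin monooxygenases, enzymes that oxidise nitrogen and sulfur atoms of drugs, were higher in JL IP than in JL input. Over all genes tested the share of higher calls was 36.7%, and 3 members are few to set beside it. Fmo2 (chr1:162874317-162898726), the main form of the lung in mice, had 62.5, 44.8 and 35.6 CPM in ES IP, 142, 142 and 148 CPM in JL IP and 0.510, 0.858 and 0.370 CPM in JL input. All JL IP values lay above all ES IP values, and both above all inputs. Its log2 fold change was 7.94 ± 0.21 (± SE) for JL IP over JL input (adjusted p = 6.91e-09), the largest fitted value of the tested members. Fmo1, its neighbour at chr1:162829561-162866610, had 30.2, 25.4 and 19.5 CPM in ES IP, 64.4, 96.6 and 82.5 CPM in JL IP and 6.73, 7.92 and 7.92 CPM in JL input. Fmo5, on chromosome 3, had 10.7, 8.46 and 6.96 CPM in ES IP, 45.4, 45.2 and 39.3 CPM in JL IP and 2.75, 3.45 and 2.81 CPM in JL input. For both genes the 3 groups did not overlap, and JL IP exceeded JL input by 3.43 ± 0.16 (Fmo1, adjusted p = 2.14e-07) and 3.85 ± 0.15 (Fmo5, adjusted p = 5.66e-08) on the log2 scale.

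P450s were called in both directions, and neither share exceeded that of all genes tested. Of 30 tested, 9 were higher in JL IP than in JL input (30.0% against 36.7% of all genes) and 10 lower (33.3% against 37.4%). Of the 103, 73 were too low to be tested. The higher ones included several known mainly from liver or lung. Cyp2f2, which activates naphthalene in mouse airways, had 1.63, 0.590 and 0.587 CPM in ES IP, 7.94, 8.76 and 13.5 CPM in JL IP and 0.216, 0.479 and 0.131 CPM in JL input. Cyp2e1, which oxidises ethanol, had 0.935, 0.393 and 0.158 CPM in ES IP, 4.04, 4.03 and 2.80 CPM in JL IP and 0.0785, 0.220 and 0 CPM in JL input. Both did not overlap between JL IP and JL input and differed by 5.17 ± 0.47 (adjusted p = 1.21e-05) and 5.13 ± 0.81 (adjusted p = 0.000444) on the log2 scale. Cyp2b10, a phenobarbital-inducible enzyme of mouse liver named here after its values were seen, had 69 counts over the JL IPs and 0 over the JL inputs, which makes it at least 36.2-fold higher (with a floor of 3 counts over the inputs). Cyp4a12b, a fatty acid hydroxylase, had 199 counts over the JL IPs and 3 over the JL inputs, a ratio of 105 with an exact 95% counting interval of 35.2 to 511. That value is uncertain, because 49.5% of the 50-base fragments of its transcripts also occur in Cyp4a12a.

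Among P450s with more reads, Cyp2d22, the mouse gene often compared with human CYP2D6, had 10.7, 9.97 and 9.20 CPM in ES IP, 45.2, 37.4 and 36.2 CPM in JL IP and 8.11, 5.49 and 5.15 CPM in JL input. JL IP lay clear of both other groups, with a log2 fold change over JL input of 2.66 ± 0.20 (adjusted p = 3.28e-06). Cyp1b1, which oxidises oestradiol and polycyclic hydrocarbons, had 2.21, 3.19 and 2.58 CPM in ES IP, 14.1, 13.4 and 10.5 CPM in JL IP and 1.67, 2.57 and 2.35 CPM in JL input. Here the ES IPs overlapped the inputs while every JL IP was higher, by 2.53 ± 0.24 over JL input (adjusted p = 1.62e-05). The related Ahr targets Cyp1a1 and Cyp1a2 were too low to be tested. Outside the naming rule, Cyp39a1, which hydroxylates the oxysterol made by Cyp46a1, averaged 4.59 ± 0.953 CPM in ES IP, 19.3 ± 4.65 CPM in JL IP and 5.23 ± 0.295 CPM in JL input. It was higher in JL IP by 1.88 ± 0.20 (adjusted p = 3.89e-05). The fatty acid hydroxylase Cyp4v3 was higher by 2.16 ± 0.26 (adjusted p = 7.42e-05).

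Sterol enzymes were among the P450s that were lower in JL IP. Cyp46a1, the neuronal enzyme that turns cholesterol into 24-hydroxycholesterol, had 52.2, 66.4 and 58.6 CPM in ES IP, 8.32, 13.0 and 15.9 CPM in JL IP and 69, 83.2 and 90.7 CPM in JL input. No JL IP reached a library of the other groups, and JL IP over JL input was -2.70 ± 0.22 (adjusted p = 6.12e-06). Cyp51, the lanosterol demethylase of cholesterol synthesis, had 42.0, 43.5 and 40.7 CPM in ES IP, 17.4, 22.6 and 20.2 CPM in JL IP and 56.6, 58.2 and 53.6 CPM in JL input. It too was lowest in JL IP (-1.48 ± 0.11 against JL input, adjusted p = 4.2e-06). Cyp7b1, which hydroxylates oxysterols, had 4.12, 4.15 and 3.14 CPM in ES IP, 2.26, 2.52 and 1.52 CPM in JL IP and 8.46, 8.02 and 6.83 CPM in JL input. It was lower in every JL IP than in every other library (-1.88 ± 0.26 against JL input, adjusted p = 0.000206). At levels under 6 CPM in every library, Cyp4x1 (-3.14 ± 0.40), Cyp2j12 (-2.88 ± 0.49), Cyp4f14 (-3.66 ± 0.79) and Cyp4f15 (-2.31 ± 0.34) were lower in JL IP, with adjusted p from 0.000118 to 0.00267. Of the fragments of Cyp4x1, 9.74% also occur in its antisense gene Cyp4x1os.

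Several calls among the P450s changed when a library was left out. Cyp26b1, which clears retinoic acid, had 1.33, 3.39 and 6.47 CPM in JL IP and 9.62, 9.76 and 11.6 CPM in JL input. Its lower call (-1.47 ± 0.46, adjusted p = 0.0175) was lost without JL IP 2 (-1.39, adjusted p = 0.0612) or JL input 3 (-1.38, adjusted p = 0.0587). Cyp2c44 had 0, 0.0580 and 2.39 CPM in JL IP and 0.785, 0.619 and 0.935 CPM in JL input. With all libraries it did not pass (log2 fold change 0.06 ± 1.31), and without JL IP 3 it was lower, at -4.52 (adjusted p = 0.00221). Cyp2r1, a vitamin D hydroxylase, did not pass either (0.18 ± 0.82) and was lower without JL IP 1, at -1.43 (adjusted p = 0.0402). Cyp11a1, the side-chain cleavage enzyme that starts steroid synthesis, had 0, 0.667 and 0.337 CPM in JL IP and 1.96, 2.06 and 2.48 CPM in JL input. Its lower call (-2.66 ± 0.88, adjusted p = 0.0223) was lost without each of the inputs in turn, at -2.74 to -2.56 (adjusted p of 0.0619, 0.0621 and 0.0810). Cyp2u1 was lower in JL IP (-0.80 ± 0.29, adjusted p = 0.0332) and lost the call in 5 of the 6 fits that left out a library, at -0.84 to -0.67 (adjusted p from 0.0531 to 0.111). For Cyp26b1, Cyp11a1 and Cyp2u1 the fold change thus moved little. JL IP 3, in which Cyp26b1 and Cyp2c44 were highest, also had the highest summed neuron and astrocyte markers of the JL IPs (2397 and 499.5 CPM). Its summed smooth muscle markers were 70.2 CPM, against 31.2 and 35.4 CPM in JL IP 1 and JL IP 2; the part of those cells in these values was not tested.

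**Figure D2:**
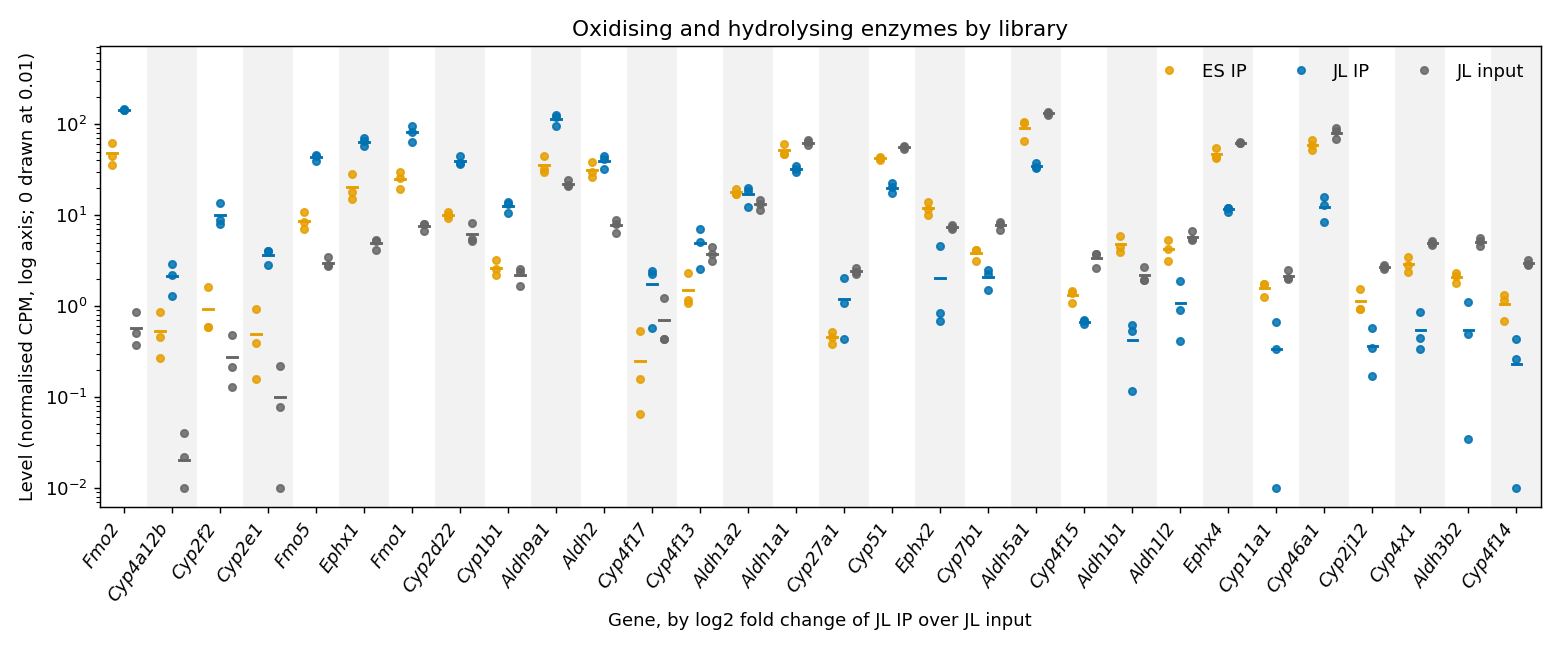
Level of 30 named P450s, flavin monooxygenases, epoxide hydrolases and aldehyde dehydrogenases in each library (vertical axis: normalised CPM, log scale, with 0 drawn at 0.01; horizontal axis: genes ordered by log2 fold change of JL IP over JL input); points are libraries and short lines group means. The JL IPs lie above the inputs on the left and below them on the right, and the ES IPs mostly lie between.

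The epoxide hydrolases differed in direction. Ephx1, the microsomal enzyme that opens epoxides of foreign compounds, had 28.1, 18.1 and 15.1 CPM in ES IP, 57.4, 70.6 and 65.0 CPM in JL IP and 5.2, 5.31 and 4.15 CPM in JL input. The 3 groups did not overlap, and JL IP exceeded JL input by 3.72 ± 0.14 (adjusted p = 5.31e-08). Ephx2, the soluble enzyme that breaks down epoxides of arachidonic acid, had 11.6, 14 and 10.1 CPM in ES IP, 0.685, 0.841 and 4.59 CPM in JL IP and 7.01, 7.34 and 7.85 CPM in JL input. JL IP 3 stood well above the other JL IPs, and the lower call of JL IP against JL input (-1.87 ± 0.64, adjusted p = 0.026) was lost without JL IP 1 (-1.46, adjusted p = 0.0561), without JL IP 2 (-1.48, adjusted p = 0.0779) and without each of the inputs (adjusted p from 0.0572 to 0.0684). Without JL IP 3 it was -3.26 (adjusted p = 1.12e-05). Ephx4 had 55.3, 43.0 and 43.7 CPM in ES IP, 12.1, 10.7 and 12.1 CPM in JL IP and 61.4, 62.1 and 64.1 CPM in JL input. It was lower in JL IP, at -2.43 ± 0.10 on the log2 scale (adjusted p = 7.89e-08).

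Of 18 tested aldehyde dehydrogenases, 6 were higher in JL IP than in JL input, 33.3% against 36.7% of all genes tested. Another 5 were lower, 27.8% against 37.4%, so neither share exceeded that of all genes. Aldh9a1, an enzyme of carnitine synthesis, had 44.4, 32.4 and 29.9 CPM in ES IP, 119, 128 and 94.4 CPM in JL IP and 21.1, 21.2 and 24.2 CPM in JL input. Aldh2, the mitochondrial enzyme that clears acetaldehyde, had 38.4, 29.7 and 26.2 CPM in ES IP, 32.4, 41.5 and 44.4 CPM in JL IP and 8.89, 7.94 and 6.33 CPM in JL input. Both lay above the inputs in every JL IP, by 2.36 ± 0.13 (adjusted p = 4.77e-07) and 2.35 ± 0.17 (adjusted p = 3.16e-06), and for Aldh2 the ES IPs overlapped the JL IPs. Aldh3a2, which oxidises fatty aldehydes and was named after its values were seen, was higher by 0.97 ± 0.08 (adjusted p = 4.5e-06), with 112 ± 2.93 CPM in JL IP and 56.9 ± 3.41 CPM in JL input.

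The 3 enzymes that make retinoic acid did not move together. Aldh1a3, outside the naming rule, was higher in JL IP (2.53 ± 0.32, adjusted p = 0.000102), with 8.18, 8.27 and 6.75 CPM in JL IP and 0.962, 1.14 and 1.91 CPM in JL input. Aldh1a1 had 59.9, 47.6 and 47.1 CPM in ES IP, 34.9, 32.0 and 29.9 CPM in JL IP and 66.8, 62.9 and 58.4 CPM in JL input. It was lower in JL IP (-0.96 ± 0.10, adjusted p = 2.65e-05). Aldh1a2 had 17.2, 19.5 and 16.9 CPM in ES IP, 12.4, 20.0 and 18.2 CPM in JL IP and 11.3, 14.8 and 13.3 CPM in JL input, with JL IP 1 inside the range of the inputs. It did not pass (0.36 ± 0.20, adjusted p = 0.129) and was higher without JL IP 1, at 0.55 (adjusted p = 0.0117).

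Aldh5a1, the succinate semialdehyde dehydrogenase of GABA breakdown, had 65.3, 103 and 105 CPM in ES IP, 33.2, 37.1 and 33.8 CPM in JL IP and 136, 132 and 126 CPM in JL input. It was lower in every JL IP than in every other library (-1.92 ± 0.08 against JL input, adjusted p = 8.56e-08). The mitochondrial Aldh1b1 had 3.93, 5.97 and 4.5 CPM in ES IP, 0.616, 0.116 and 0.540 CPM in JL IP and 1.94, 2.69 and 1.91 CPM in JL input. The groups did not overlap and ES IP was highest. The mitochondrial folate enzyme Aldh1l2 had 3.12, 5.29 and 4.22 CPM in ES IP, 0.411, 1.89 and 0.911 CPM in JL IP and 5.46, 5.31 and 6.68 CPM in JL input. Against JL input, JL IP was lower, at -2.37 ± 0.60 for Aldh1b1 (adjusted p = 0.0067) and -2.43 ± 0.48 for Aldh1l2 (adjusted p = 0.00178). Aldh3b2 was also lower (-3.23 ± 0.72, adjusted p = 0.00339), with 0.0342, 0.493 and 1.11 CPM in JL IP and 5.24, 4.59 and 5.57 CPM in JL input, but 23.5% of its fragments also occur in Aldh3b3. Aldh1l2 and Aldh5a1 overlap genes of the other strand over 14.1% of their exon bases each, and whether strand was used in counting is not given in the sources used here.

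Among families with more than 5 tested members, the glutathione transferases had the largest share of higher calls. Of 20 tested, 13 were higher, 65.0% against the background of 36.7%, and 1 was lower, 5.0% against 37.4%. Gstm1, the highest member in JL IP, had 168, 192 and 150.3 CPM in ES IP, 467, 443 and 509.5 CPM in JL IP and 174, 164 and 174 CPM in JL input. The JL IPs lay above both other groups, which overlapped each other, and exceeded JL input by 1.47 ± 0.07 (adjusted p = 3e-07). Gsta4, the transferase for the lipid peroxidation product 4-hydroxynonenal, named after its values were seen, had 202, 111 and 104 CPM in ES IP, 346, 322 and 524 CPM in JL IP and 61.5, 63.2 and 59.3 CPM in JL input, with JL IP 3 and ES IP 1 highest in their groups. JL IP exceeded JL input by 2.70 ± 0.18 (adjusted p = 1.46e-06).

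Larger ratios came from transferases that were scarce in the input. Gstm2 had 11.2, 6.71 and 6.48 CPM in ES IP, 20.4, 26.1 and 32.0 CPM in JL IP and 1.06, 0.778 and 0.957 CPM in JL input. Gstt2 had 16.2, 6.71 and 6.33 CPM in ES IP, 27.4, 29.8 and 31.0 CPM in JL IP and 1.06, 1.26 and 0.957 CPM in JL input. Gstt3 had 13.4, 9.46 and 9.38 CPM in ES IP, 57.2, 54.1 and 48.6 CPM in JL IP and 2.81, 3.53 and 3.13 CPM in JL input. In all 3 genes the groups were ordered JL IP, ES IP, JL input with no overlap, and JL IP exceeded JL input by 4.81 ± 0.23, 4.75 ± 0.17 and 4.08 ± 0.14 on the log2 scale (adjusted p = 2.18e-07, 3.31e-08 and 2.95e-08). Gstp2 was higher by 3.87 ± 0.70 (adjusted p = 0.00099) at 1.23, 0.870 and 1.31 CPM in JL IP and 0.0981, 0.0199 and 0.109 CPM in JL input, and Gstp1 by 0.77 ± 0.10 (adjusted p = 0.00011) at 40.9, 39.1 and 41.3 CPM in JL IP and 25.6, 23.2 and 22.3 CPM in JL input. Both are uncertain as single genes, since 49.1% of the fragments of Gstp2 and 33.7% of those of Gstp1 occur in the other.

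The 3 microsomal enzymes, which lie in membranes and act on leukotrienes and lipid peroxides, also differed among themselves. Mgst2, which can make leukotriene C4, had 1.56, 0.372 and 0.497 CPM in ES IP, 4.11, 4.73 and 4.22 CPM in JL IP and 0.118, 0.0798 and 0.131 CPM in JL input. JL IP exceeded JL input for Mgst2 (5.28 ± 0.40, adjusted p = 3.97e-06). Mgst1, whose antioxidant core is shown above and which was named after its values were seen, had 8.75, 6.86 and 5.51 CPM in ES IP, 23.1, 31.6 and 30.6 CPM in JL IP and 2.65, 2.95 and 2.91 CPM in JL input. It was higher in JL IP too (3.32 ± 0.17, adjusted p = 3.15e-07). In both genes none of the groups overlapped. Mgst3 had 136, 79.6 and 71.5 CPM in ES IP, 48.3, 44.6 and 53.5 CPM in JL IP and 57.1, 53.7 and 59.0 CPM in JL input. It did not pass for JL IP against JL input (-0.21 ± 0.09, adjusted p = 0.0648). DESeq2, 3 other scalings and the fits without Rn45s or without JL IP 3 called it lower, at -0.23 to -0.47. Gstm5, the single transferase called lower, had a log2 fold change of -0.30 ± 0.10 (adjusted p = 0.0236) with 73.5 ± 9.63 CPM in JL IP and 90.6 ± 4.67 CPM in JL input. The call was lost without JL IP 1, JL IP 2, JL input 1 or JL input 2, at adjusted p from 0.0626 to 0.0855.

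**Figure D3:**
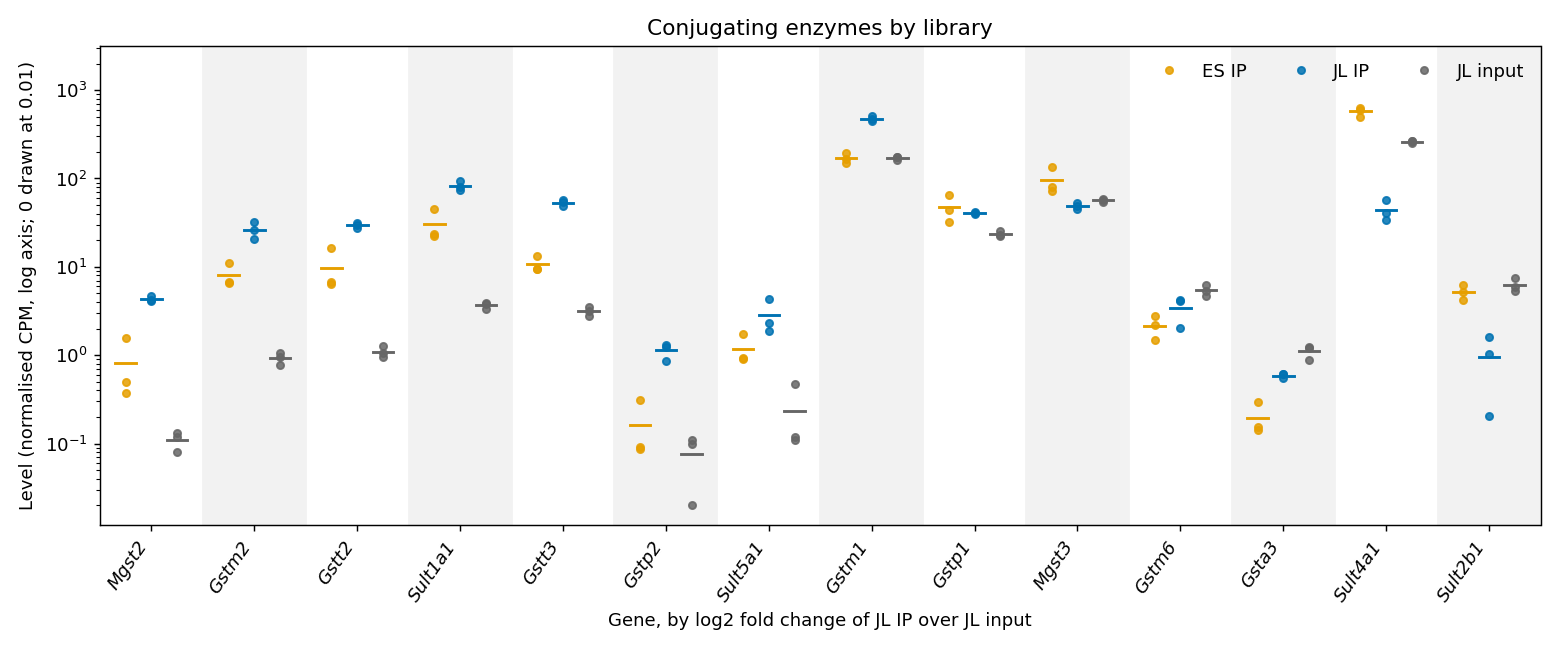
Level of 14 named glutathione transferases and sulfotransferases in each library (vertical axis: normalised CPM, log scale; horizontal axis: genes ordered by log2 fold change of JL IP over JL input); points are libraries and short lines group means. For Gstm2, Gstt2, Gstt3, Sult1a1 and Mgst2 the order is JL IP, ES IP, JL input; Sult4a1 is lowest in JL IP and highest in ES IP.

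Among 5 tested sulfotransferases, Sult1a1, the main phenol sulfotransferase (chr7:126672865-126676432), had 45.4, 23.8 and 22.2 CPM in ES IP, 80.6, 74.1 and 93.4 CPM in JL IP and 3.89, 3.29 and 3.78 CPM in JL input. Each group was clear of the others and JL IP exceeded JL input by 4.50 ± 0.13 (adjusted p = 1.26e-08). Sult4a1, an enzyme of brain neurons with no well established substrate, had 622, 497 and 603 CPM in ES IP, 41.1, 34.0 and 57.0 CPM in JL IP and 269, 253 and 263 CPM in JL input. It was lower in JL IP than in JL input, at -2.57 ± 0.17 on the log2 scale (adjusted p = 1.54e-06). Sult2b1, which sulfates cholesterol and pregnenolone, had 6.23, 5.14 and 4.22 CPM in ES IP, 0.205, 1.59 and 1.04 CPM in JL IP and 7.50, 5.93 and 5.26 CPM in JL input. It was lower in JL IP (-2.70 ± 0.56, adjusted p = 0.00233). Sult5a1 was higher (3.58 ± 0.69, adjusted p = 0.00144), at 1.88, 4.29 and 2.29 CPM in JL IP and 0.471, 0.120 and 0.109 CPM in JL input.

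Counts of glucuronidation enzymes were at the limit of detection. None of the 17 Ugt genes was tested, 10 had no count, and their summed level was 0.008 ± 0.0138 CPM in ES IP, 0.0193 ± 0.0335 CPM in JL IP and 0.203 ± 0.0675 CPM in JL input. A count of 3 in a library corresponds to 0.0644 to 0.0938 CPM, which limits what these libraries can show. Ugt1a6a, a phenol glucuronosyltransferase and the Ugt with the most counts, had 17 counts over the 9 libraries, and 51.1% of its fragments also occur in Ugt1a7c. The Ugt1a genes share from 52.1% (Ugt1a6a) to 80.2% (Ugt1a1) of their fragments with other genes, Ugt2a1 97.0% and Ugt2a2 93.6%. Reads that aligned at several places, or fitted several overlapping genes, were listed in rows apart from the genes. Reads of these genes can thus be missing from their counts, and low counts need not mean low RNA. The size of this loss was not tested.

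All 34 higher calls of JL IP against JL input were kept when each of the 6 libraries was left out in turn, and 15 of the 20 lower calls were; the other 5 are Cyp11a1, Cyp26b1, Cyp2u1, Ephx2 and Gstm5, with the values given above. Markers of other vascular and tissue cells moved in this comparison too. Of 6 fibroblast markers 4 were higher and 2 lower, with a summed level of 58.4 to 92.7 CPM in JL IP and 46.6 to 48.9 CPM in JL input; of 8 pericyte markers 0 were higher and 7 lower (6.13 to 10.9 CPM in JL IP, 32.9 to 37.1 CPM in JL input). Of 6 choroid plexus and ependyma markers 0 were higher and 4 lower, and of 8 astrocyte markers 1 was higher and 7 lower. The part of these cells in the members' values was not tested.

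The 2 sets of IPs were compared next, which asks how far the members depend on the extraction by ES or JL. Of 78 tested members 17 were higher in ES IP than in JL IP, 21.8% against 29.7% of all 16212 genes tested, and 31 were lower, 39.7% against 28.2%; 30 did not pass. The median log2 fold change was -0.52 over the tested members and 0.03 over all genes. All 12 endothelial markers were lower and all 8 neuron markers higher in ES IP, and the part of this in the members' values was not tested. The investigator, the mice and their sex, and any difference in handling cannot be told apart.

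Members that were lower in ES IP included all 3 tested flavin monooxygenases and 11 of 20 glutathione transferases, while 2 of the 20 were higher. Over all genes tested 28.2% were lower and 29.7% higher. Fmo2, with the values given above, was lower in ES IP, at a log2 fold change of -1.52 ± 0.20 (adjusted p = 8.24e-05), as were Fmo5 at -2.23 ± 0.21 (adjusted p = 6.24e-06) and Cyp1b1 at -2.17 ± 0.27 (adjusted p = 4.91e-05). The most negative were Cyp2f2 (-3.35 ± 0.45, adjusted p = 8.38e-05), Cyp2e1 (-2.80 ± 0.61, adjusted p = 0.00233), Cyp4f17 (-2.74 ± 0.86, adjusted p = 0.0182), Gstp2 (-2.71 ± 0.75, adjusted p = 0.00965) and Mgst2 (-2.35 ± 0.54, adjusted p = 0.00328). Gstm1 (-1.39 ± 0.17), Gstt3 (-2.23 ± 0.20), Ephx1 (-1.58 ± 0.23), Sult1a1 (-1.37 ± 0.26) and Aldh9a1 (-1.60 ± 0.20) were also lower, with adjusted p of at most 0.00098. Aldh2 did not pass (-0.25 ± 0.20, adjusted p = 0.317), nor did Gstp1 (0.30 ± 0.23, adjusted p = 0.292), for which ES IP 1 was the highest of the 9 libraries.

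Members that were higher in ES IP were led by Sult4a1 (3.78 ± 0.23, adjusted p = 7.48e-07), Aldh1b1 (3.59 ± 0.56, adjusted p = 0.000242), Ephx2 (2.63 ± 0.60, adjusted p = 0.00317), Sult2b1 (2.52 ± 0.58, adjusted p = 0.00317), Cyp4x1 (2.45 ± 0.52, adjusted p = 0.00199) and Cyp46a1 (2.33 ± 0.25, adjusted p = 1.49e-05). Ephx4 (2.10 ± 0.19), Aldh1l2 (2.05 ± 0.53), Aldh5a1 (1.47 ± 0.21), Cyp51 (1.15 ± 0.18) and Mgst3 (1.05 ± 0.23) were higher too, with adjusted p of at most 0.0067. Of the 48 calls, 38 were kept when each of the 6 libraries was left out in turn: 14 of 17 higher and 24 of 31 lower. The 3 higher calls that were lost are Cyp2j12 (1.38 to 1.85, adjusted p from 0.0970 to 0.155, in every such fit but that without JL IP 3), Cyp2u1 (0.82 to 1.12, adjusted p from 0.0536 to 0.111, without ES IP 1, JL IP 1 or JL IP 2) and Cyp7b1 (0.75 to 1.06, adjusted p from 0.0602 to 0.152, in every such fit but that without JL IP 2).

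The 7 lower calls that depended on a library were Aldh4a1, Cyp20a1, Cyp4a12b, Cyp4f13, Cyp4f17, Gstp2 and Gstt1. Cyp4a12b, Cyp4f13 and Cyp4f17 did not pass without ES IP 2, ES IP 3 or JL IP 3, at adjusted p from 0.0531 to 0.0790. Gstp2 did not pass without ES IP 2 (-2.40, adjusted p = 0.0633) or ES IP 3 (-2.42, adjusted p = 0.0583), and Aldh4a1, a proline-degrading enzyme with 30.0% of its fragments also in Gm21969 and so uncertain, without ES IP 3 (-0.60, adjusted p = 0.0778) or JL IP 1 (-0.59, adjusted p = 0.0665). Cyp20a1 did not pass without ES IP 2, ES IP 3, JL IP 2 or JL IP 3 (adjusted p from 0.0719 to 0.117), and Gstt1 without any of the libraries but ES IP 1 (adjusted p from 0.0549 to 0.177).

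**Figure D4:**
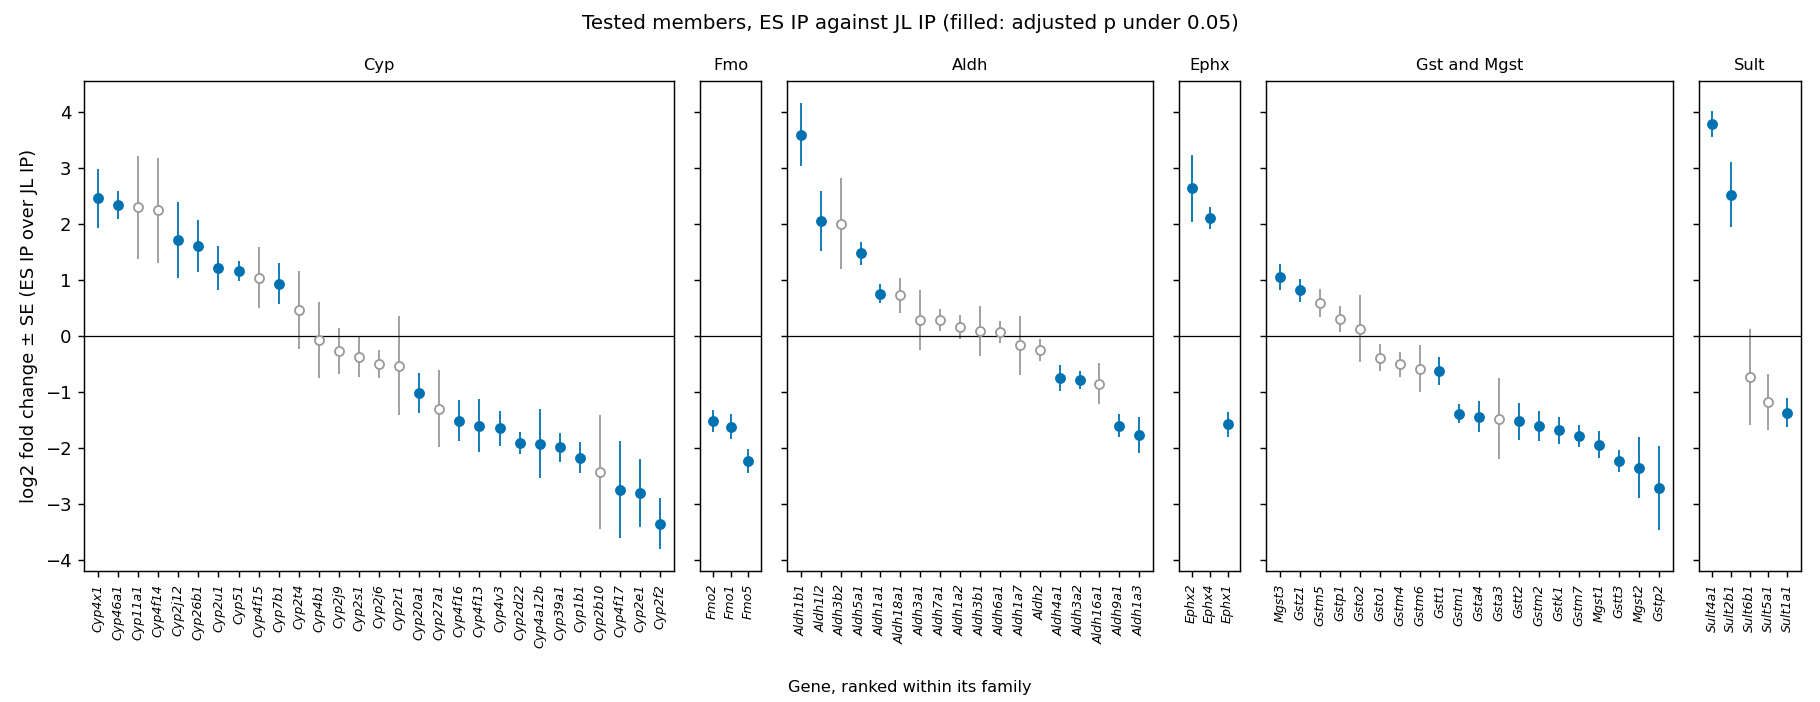
Log2 fold change of ES IP over JL IP (vertical axis) for the 78 tested members, ranked within each family, with its standard error as a bar; filled points passed an adjusted p of 0.05 in edgeR's quasi-likelihood test and open points did not. All 3 flavin monooxygenases and 11 of 20 glutathione transferases lie below 0 as filled points, while Sult4a1, Sult2b1, Ephx2, Ephx4 and 4 of 18 aldehyde dehydrogenases lie above 0 as filled points. Of all genes tested, 28.2% were lower and 29.7% higher.

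For each of the 79 members tested in the JL comparison, the ES IP mean was set beside those of JL IP and JL input. It lay between them for 49 (62.0%), above both for 14 (17.7%) and below both for 16 (20.3%). Those above both included Sult4a1, Aldh1b1, Ephx2, Mgst3, Gstz1 and Cyp26b1, and those below both included Cyp27a1, Gsta3, Gstm6, Cyp4f13 and Cyp2c44. With each library left out in turn the counts were 48 to 53, 11 to 16 and 14 to 15. The same places were not counted over all genes, so these shares cannot be read as particular to the members.

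Against the same inputs, 30 of 78 tested members were higher in ES IP, 38.5% against 26.9% of all 17477 genes tested, and 18 were lower, 23.1% against 25.3%; 30 did not pass. The median log2 fold change was 0.30 over the tested members and 0.00 over all genes. This comparison shares its inputs with that of JL IP and its IPs with that of ES and JL IP, so it is no independent support for either. The largest increases were Fmo2 (6.35 ± 0.34, adjusted p = 7.12e-06), Cyp4a12b (69 counts against 3, a ratio of 25.7 with an exact 95% counting interval of 8.43 to 128), Gstt2 (3.15 ± 0.39, adjusted p = 0.000385), Gstm2 (3.12 ± 0.27, adjusted p = 6.87e-05) and Sult1a1 (3.05 ± 0.28, adjusted p = 9.14e-05). By family, 3 of 3 Fmo, 13 of 20 Gst and Mgst, 6 of 18 Aldh, 2 of 3 Ephx, 3 of 5 Sult and 3 of 29 Cyp genes were higher, and 0, 2, 2, 1, 0 and 13 were lower.

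Gstm1 (log2 fold change 0.00 ± 0.13, adjusted p = 0.981) and Cyp1b1 (0.28 ± 0.25, adjusted p = 0.381), both called higher in JL IP, did not pass in ES IP against JL input. Decreases were led by Gsta3 (-2.48 ± 0.42, adjusted p = 0.00168) and Cyp27a1 (-2.41 ± 0.26, adjusted p = 0.000199), the sterol 27-hydroxylase, among members with a mean of at least 1 CPM in JL input. Cyp27a1 had 0.456, 0.525 and 0.384 CPM in ES IP, 1.09, 0.435 and 2.06 CPM in JL IP and 2.39, 2.25 and 2.65 CPM in JL input. The ES IPs lay below all inputs, and the JL IPs were spread widely and did not pass against JL input (-1.03 ± 0.53, adjusted p = 0.108); without JL IP 3 they were lower, at -1.68 (adjusted p = 0.0102). Gsta3 had 0.144, 0.153 and 0.294 CPM in ES IP, 0.548, 0.609 and 0.607 CPM in JL IP and 1.22, 1.24 and 0.892 CPM in JL input. The groups did not overlap, and levels were under 2 CPM throughout.

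Of the calls of ES IP against JL input, 22 of 30 higher and 12 of 18 lower were kept when each library was left out in turn. The higher calls lost were Aldh1a2, Cyp2d22, Cyp2f2, Gsta2, Gstk1, Gstm4, Mgst3 and Sult5a1, and the lower calls lost were Aldh5a1, Cyp2j6, Cyp2s1, Cyp46a1, Cyp51 and Ephx4. Their highest adjusted p-value in those fits was 0.162 (Gsta2 without JL input 2; uncertain, with 49.8% of its fragments also in other genes), and each of these 14 lost the call without at least 1 of the inputs. Without ES IP 1 the log2 fold change fell to 0.43 for Mgst3, against 0.76 with all libraries, and to 1.10 for Cyp2f2, against 1.74.

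Members of a family often lie side by side in the mouse genome (GENCODE M21, mm10), and neighbours did not always go together. In the mu-class cluster at chr3:107895821-108044894, with 7 members, 6 were tested in JL IP against JL input: Gstm1, Gstm2, Gstm4 and Gstm7 were higher, Gstm5 was lower, and Gstm6 did not pass (-0.66 ± 0.32, adjusted p = 0.0901). In the theta-class cluster at chr10:75774115-75837424 all 3 tested members, Gstt1, Gstt2 and Gstt3, were higher. In the Cyp4f cluster at chr17:32452723-32965718, Cyp4f16 was higher (1.51 ± 0.32, adjusted p = 0.00247), Cyp4f14 and Cyp4f15 were lower, and Cyp4f13 (0.37 ± 0.37) and Cyp4f17 (1.33 ± 0.68) did not pass, though both were higher without JL IP 2 (0.68, adjusted p = 0.0482, and 1.76, adjusted p = 0.0213). Clusters with drug-metabolising P450s of the liver differed. No member was tested in Cyp2c on chromosome 19 (15 members) or Cyp3a on chromosome 5 (7 members). In the cluster of Cyp2a, Cyp2b and Cyp2f genes on chromosome 7, 4 of 13 members were tested and 2 were higher, Cyp2b10 and Cyp2f2. In the Cyp2d cluster on chromosome 15, with 9 members, Cyp2d22 alone was tested and was higher. No member was tested in the Ugt1 and Ugt2 clusters or the Sult2a cluster (7 members).

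Genes that serve these enzymes were read from lists chosen with earlier results of these data known, and their counts stand beside the background of 36.7% higher and 37.4% lower for JL IP against JL input. Of 7 tested electron donors of P450s, 6 were higher and 0 lower. Cyb5r3, the cytochrome b5 reductase, was 2.51 ± 0.11 (adjusted p = 1.24e-07), at 402 ± 49.5 CPM in JL IP and 70.5 ± 6.07 CPM in JL input. Por, the main P450 reductase, was 0.58 ± 0.21 (adjusted p = 0.0356), a call lost under median-of-ratios, upper quartile and library size scaling and without any library but JL IP 1 (adjusted p from 0.0530 to 0.109 when a library was left out, with a log2 fold change of 0.30 without JL IP 3). Of 17 tested enzymes of other oxidation, reduction and hydrolysis, 14 were higher and 0 lower. The highest fold changes were those of Akr1c14, an aldo-keto reductase of steroids, at 8.34 ± 0.16 (adjusted p = 2.27e-09) and the alcohol dehydrogenase Adh1 at 8.17 ± 0.32 (adjusted p = 6.79e-08).

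Of 16 tested receptors and sensors of foreign compounds and lipids, 11 were higher and 2 lower. Nfe2l2 had 320.1 ± 15.9 CPM in JL IP and 19.9 ± 1.05 CPM in JL input (4.01 ± 0.08, adjusted p = 2.69e-09). Ahr had 23.5 ± 5.79 CPM in JL IP and 12.6 ± 0.812 CPM in JL input (0.91 ± 0.19, adjusted p = 0.00206; named after its values were seen). The drug receptors of the liver were scarce: Nr1i2 (PXR) was too low to be tested, and Nr1i3 (CAR) did not pass (1.03 ± 0.60, adjusted p = 0.147). Rxrg was lowest in rank (-2.57 ± 0.45, adjusted p = 0.000851). Of 12 glutathione and NRF2 target genes, 8 were higher and 2 lower, from the peroxidase Gpx1 (3.21 ± 0.12, adjusted p = 4.99e-08) to the cystine carrier Slc7a11 (-2.05 ± 0.18, adjusted p = 1.16e-05). Of 8 genes that supply cofactors for glucuronidation and sulfation 4 were higher and 2 lower, and of 9 other conjugating enzymes 2 were higher and 2 lower, from the acetyltransferase Nat2 (3.06 ± 0.26, adjusted p = 7.08e-06) to the prostaglandin D synthase Hpgds (-3.37 ± 0.39, adjusted p = 5.99e-05).

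Lipid pathways that share substrates with the members were read in the same way. Of 14 tested eicosanoid enzymes, 9 were higher and 1 lower in JL IP, with the prostacyclin synthase Ptgis at 5.27 ± 0.26 (adjusted p = 2.47e-07). Of 11 retinoid genes, 6 were higher and 2 lower, from Stra6, the retinol carrier of cell membranes (6.48 ± 0.13, adjusted p = 2.36e-09), to Crabp1 (-4.63 ± 0.76, adjusted p = 0.000557). Of 12 genes of cholesterol and oxysterol handling, 3 were higher and 7 lower: Ch25h, which makes 25-hydroxycholesterol, was 7.59 ± 0.54 (adjusted p = 2.41e-06). In ES IP against JL IP, with backgrounds of 29.7% higher and 28.2% lower, 0 of 7 electron donors were higher and 4 lower, 1 of 16 receptors was higher and 7 lower, 1 of 17 other oxidising enzymes was higher and 12 lower, and 4 of 12 cholesterol genes were higher and 2 lower.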

How the data were processed

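Gene counts per library were deposited by the authors as raw whole numbers, made with STAR 2.0.0e and HTSeq on mm10 per the submitters' processing notes; which annotation, strand setting and filters applied was not given in the sources used here. HTSeq's rows for reads assigned to no gene entered neither library sizes nor tests; reads in no feature came to 17.9%, 23.5% and 19.3%, and ambiguous reads to 2.48%, 2.09% and 10.8%, of ES IP, JL IP and JL input. HTSeq's row of alignments that were not unique held 1.13, 1.90 and 0.626 for each gene count in these groups, so it differed between them. The ribosomal gene Rn45s took 8.74%, 16.9% and 5.10% of gene counts in the same order. Each pair of groups was fitted over all genes with edgeR 4.0.16 (R 4.3.3; filterByExpr, TMM, quasi-likelihood test, Benjamini-Hochberg adjustment, threshold 0.05), with DESeq2 1.42.0, other scalings, no filter, a replicate block and each library left out as alternatives; the script was tested on simulated data. Standard errors are those implied by the test statistic. CPM used TMM factors over the 9 libraries, and lengths, positions and overlaps came from GENCODE M21 (189 of 190 symbols matched, 1 of them by a synonym). Shared fragments are the share of a gene's 50-base transcript fragments that also occur in another gene, and above 20% a gene is called uncertain. Start regions are from RefSeq (GRCm38.p6). Intervals on counts cover counting error only.

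Members and lists were chosen with earlier results of these data known. Genes were named by a rule: a fixed list of well known members, those with the largest fold changes among members past the threshold with at least 1 CPM in the higher group, the highest member of each family per length, up to 2 at the ends of a family's range, and up to 3 genes of each pathway list; other names are marked or serve to account for a count or a lost call.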

Additional observations from a re-analysis of the deposited data

Results flagged for a closer look

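In 3 members ES IP was higher and JL IP lower than the same inputs, both past the threshold of edgeR's quasi-likelihood test. The difference between the IPs passed it too, but it nearly follows from that pattern in the same libraries and adds no support. Sult4a1 averaged 574 CPM in ES IP, 44.0 CPM in JL IP and 262 CPM in JL input, and ES IP exceeded JL IP by 3.78 ± 0.23 on the log2 scale (adjusted p = 7.48e-07). Against JL input its log2 fold change was 1.13 in ES IP and -2.57 in JL IP. Aldh1b1 exceeded JL IP by 3.59 ± 0.56 in ES IP (adjusted p = 0.000242), with 1.14 in ES IP and -2.37 in JL IP against JL input. Ephx2 exceeded JL IP by 2.63 ± 0.60 in ES IP (adjusted p = 0.00317), with 0.68 in ES IP and -1.87 in JL IP against JL input.

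For Ephx2 the lower call in JL IP against JL input was lost when any library but JL IP 3 was left out (adjusted p up to 0.0779). Its higher call in ES IP against JL input was lost when all 9 libraries shared 1 fit (0.68, adjusted p = 0.295). The difference between the IPs for Ephx2 was 4.03 without JL IP 3 (adjusted p = 1.7e-05). The summed neuron markers were 15090 to 16530 CPM in ES IP, 1839 to 2397 CPM in JL IP and 14830 to 15560 CPM in JL input; their part in these results was not tested.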

How the results depend on the processing

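Counts of higher and lower members stayed within 1.5 times their value under all alternatives that were run. With each library left out in turn, the higher and lower counts were 34 to 38 and 16 to 25 for JL IP against JL input, 15 to 20 and 25 to 32 for ES IP against JL IP, and 23 to 31 and 14 to 23 for ES IP against JL input, and the medians 0.37 to 0.64, -0.71 to -0.40 and 0.16 to 0.43. Under upper quartile and library size scaling the median of JL IP against JL input was 0.20 and 0.21, with all genes at -0.34 and -0.35, and that of ES IP against JL input 0.15 and 0.19, with all genes at -0.15 and -0.11. Without the filter on low counts, which adds members with few reads, the medians were -0.09 (JL IP against JL input, all genes -0.52), -0.32 (ES IP against JL IP) and 0.12 (ES IP against JL input). Over 20% of fragments were shared in 48 members at 50 bases, 64 at 36 and 23 at 100. With the replicate block the counts were 34 and 19, 18 and 31, and 30 and 19 in the same order; it ended the calls of Cyp2u1 in JL IP against JL input (adjusted p = 0.063), Cyp2j12 (0.092) and Cyp7b1 (0.0626) in ES IP against JL IP, and Gsta2 in ES IP against JL input (0.105). Same-numbered JL IP and JL input libraries correlated at 0.154, 0.0705 and 0.107. Each JL IP correlated best with its own number, and Ddx3y exceeded 1 count in replicate 1 alone of both groups, a hint of pairing in the data. Xist was less clear, since JL IP 1 held 51 counts and JL input 1 held 1 count. The labels do not state a pairing and the second correlation is low, so the block was kept as an alternative. Among 7712 gene values under alternatives, 7255 kept direction and side of the threshold, 258 lost the call, 197 gained one and 2 reversed. The reversed ones were Cyp2c44 in JL IP against JL input, -4.52 without JL IP 3 and up to 0.64 without another library, and Cyp2r1, -1.43 without JL IP 1 and up to 0.62; the cause was not tested. Depth limits the 111 members that were not tested, of which 51 had counts. For those that share fragments with other genes, uncounted reads may be a further limit, which was not tested.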
